A study of Mus musculus with 12 samples.

Results

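The CLK kinases (Clk1, Clk2, Clk3 and Clk4) and the SRPK kinases (Srpk1 and Srpk2) were chosen by name, as the protein kinases that act on SR proteins. They are 6 of the 18594 genes named in the deposited splicing table and own 190 of its 401633 splicing events. SR proteins are splicing factors whose arginine-serine repeats are phosphorylated in the cytoplasm by SRPKs, which sends them into the nucleus, and in the nucleus by CLKs, which releases them from speckles. CLK transcripts are spliced alternatively themselves: skipping of exon 4 gives a truncated protein without the kinase domain, and the introns around that exon are known to be detained in nuclear RNA.

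The cells were mouse neuroblastoma cells (N2A), held as Flp-In rtTA3 stable lines with an inducible, N-terminally 3xFlag-tagged Puf60 cDNA that the siRNA does not target. Puf60, a splicing factor of the U2AF family, helps to recognise the 3′ ends of introns. The cDNA contained Puf60 exon 5 in the pEx5 line and lacked it in the mEx5 line, and each line had 3 groups: control cells with a non-targeting siRNA, knockdown cells with siRNA against Puf60, and induction cells with that siRNA and doxycycline. Polyadenylated RNA was sequenced from stranded libraries. The siRNA was used at 15 nM, doxycycline at 2 µg/ml for 24 h, and cells were harvested at 48 h, with 2 libraries (A and B) in each of the 6 groups. No group had doxycycline with the non-targeting siRNA, so an effect of the drug and of the cDNA cannot be told apart. The series calls the libraries biological duplicates, and nothing says whether they came from separate cultures or transfections, so p-values measure the spread between these samples, which may be technical.

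The libraries held 22908930 to 41494994 exon-exon junction reads. In the authors' deposited table Puf60 itself stood at 107 and 103 RPKM in the pEx5 and mEx5 controls, at 22.1 and 25.2 RPKM after knockdown, and at 246 and 202 RPKM after induction. Of 12 neural markers in that table, 10 were above 1 RPKM on average, with a summed level of 1060 to 1390 RPKM per group. The neurofilament genes Nefl and Nefm were at or near 0. Of 14 markers of astrocytes, fibroblasts, blood, endothelium and epithelium, 2 were above 1 RPKM, and no such type's summed level was above 3.83 RPKM in any group.

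Of the 190 events, 73 are exons, 2 microexons, 74 introns, 23 alternative 3′ sites and 18 alternative 5′ sites. At least 10 reads in every library were present for 168 of them, and most of these had a mean near an end of the scale. Of these, 57 introns were retained in under 5% of transcripts, 67 exons or sites were used in over 95%, and 12 in under 5%. The remaining 32 events, with a mean percent spliced in (PSI, the share of reads that include an exon, a site or an intron) of 5 to 95, were tested. An event was called where limma gave an adjusted p under 0.05 and the PSI differed by at least 10 points.

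The exons and the splice site on which the results turn are shown first, so that the genes can be compared at the same exon. Sequences are from GENCODE transcripts of mm10 and run 5′ to 3′, with the exon in capitals and the last 50 bases of the intron before it in lower case. Exon 4 is the same exon of 13 in each CLK gene.
Clk1 exon 4 (Clk1-201, chr1:58420121-58420211, minus strand, 91 nt): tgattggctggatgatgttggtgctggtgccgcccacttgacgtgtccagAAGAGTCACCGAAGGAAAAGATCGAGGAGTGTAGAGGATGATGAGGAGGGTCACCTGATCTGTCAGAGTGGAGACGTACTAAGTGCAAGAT
Clk2 exon 4 (Clk2-201, chr3:89169618-89169702, plus strand, 85 nt): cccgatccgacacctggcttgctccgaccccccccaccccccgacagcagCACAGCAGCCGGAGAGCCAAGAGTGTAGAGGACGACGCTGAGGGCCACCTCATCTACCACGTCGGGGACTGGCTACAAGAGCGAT
Clk3 exon 4 (Clk3-201, chr9:57758627-57758723, minus strand, 97 nt): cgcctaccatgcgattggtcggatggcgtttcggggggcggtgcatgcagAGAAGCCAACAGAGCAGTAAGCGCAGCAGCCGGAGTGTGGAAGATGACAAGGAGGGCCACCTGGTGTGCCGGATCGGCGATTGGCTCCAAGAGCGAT
Clk4 exon 4 (Clk4-201, chr11:51273078-51273168, plus strand, 91 nt): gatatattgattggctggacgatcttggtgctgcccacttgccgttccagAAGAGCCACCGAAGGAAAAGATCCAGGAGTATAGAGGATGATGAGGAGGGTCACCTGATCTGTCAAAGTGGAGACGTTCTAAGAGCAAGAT
Clk1 exon 7 (Clk1-201, chr1:58417013-58417179, minus strand, 167 nt): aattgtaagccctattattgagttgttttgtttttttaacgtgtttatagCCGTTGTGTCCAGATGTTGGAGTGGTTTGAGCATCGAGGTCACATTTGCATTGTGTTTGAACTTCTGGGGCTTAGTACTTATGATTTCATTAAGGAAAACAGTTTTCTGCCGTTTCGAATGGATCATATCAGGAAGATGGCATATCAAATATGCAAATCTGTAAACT
Clk2 exon 7 (Clk2-201, chr3:89173377-89173543, plus strand, 167 nt): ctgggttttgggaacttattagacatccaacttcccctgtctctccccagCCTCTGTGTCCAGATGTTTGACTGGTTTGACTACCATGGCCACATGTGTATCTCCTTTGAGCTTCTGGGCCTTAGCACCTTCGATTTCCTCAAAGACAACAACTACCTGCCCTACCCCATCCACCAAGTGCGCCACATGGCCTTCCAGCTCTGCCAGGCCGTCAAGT

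Clk1 and Clk4 shared 85 of the 91 bases of exon 4 (93.4%). In all 4 CLK genes exon 4 is coding and its length is not a multiple of 3. Without it the reading frame meets a stop 809 nt before the last exon junction in Clk1 and Clk4, 818 nt before it in Clk2 and 740 nt before it in Clk3. Clk1 and Clk2 shared 110 of the 167 bases of exon 7 (65.9%), and in both genes the frame without exon 7 stops 469 nt before the last junction. The 50 intronic bases before exon 4 of Clk2 held 28 C and 5 T, while those before exon 4 of Clk3 held 12 C and 11 T. Those of Clk1 held 11 C and 15 T, and those of Clk4 held 12 C and 16 T. A link between these bases and exon use was not tested. The bases before exon 7 of Clk1 held 26 T and 4 C, against 16 T and 16 C before exon 7 of Clk2.

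Further exons are shown because Puf60 knockdown changed exon use at the start of Clk4 and near the end of Srpk1. Clk4 exon 2 begins with the annotated start codon, so that its skipping removes it. Exon 15 of Srpk1 and exon 14 of Srpk2 are the second-last exons of these genes and have the same length. In the longer form of Srpk1 exon 15 the capitals mark the 117 bases that an upstream 3′ splice site adds to the exon. The intron bases before Clk4 exon 2 and Srpk2 exon 14 were not found in the GENCODE transcripts and are not shown.
Clk4 exon 2 (Clk4-201, chr11:51267171-51267331, plus strand, 161 nt): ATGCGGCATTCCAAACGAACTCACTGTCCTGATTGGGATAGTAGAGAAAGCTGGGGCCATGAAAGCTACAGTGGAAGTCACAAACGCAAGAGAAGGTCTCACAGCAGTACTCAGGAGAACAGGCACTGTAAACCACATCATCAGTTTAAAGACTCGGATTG
Srpk1 exon 15, added bases (chr17:28591294-28591410, minus strand, 117 nt): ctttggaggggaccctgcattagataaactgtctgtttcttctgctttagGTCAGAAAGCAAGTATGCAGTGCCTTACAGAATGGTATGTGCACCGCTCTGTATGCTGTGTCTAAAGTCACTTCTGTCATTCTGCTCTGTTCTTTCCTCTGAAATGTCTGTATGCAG
Srpk1 exon 15 (Srpk1-204, chr17:28591201-28591293, minus strand, 93 nt): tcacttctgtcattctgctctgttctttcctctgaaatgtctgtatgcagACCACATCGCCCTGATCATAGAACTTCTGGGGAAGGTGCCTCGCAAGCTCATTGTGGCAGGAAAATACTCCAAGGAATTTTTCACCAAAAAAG
Srpk2 exon 14 (Srpk2-201, chr5:23513952-23514044, minus strand, 93 nt): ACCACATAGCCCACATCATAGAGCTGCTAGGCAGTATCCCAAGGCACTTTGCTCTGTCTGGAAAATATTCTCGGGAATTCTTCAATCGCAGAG

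The Srpk1 and Srpk2 exons shared 59 of 93 bases (63.4%). The added 117 bases of Srpk1 keep the length a multiple of 3 but bring a stop codon, after 1731 coding bases instead of 1944, that lies 145 nt before the last junction. Skipping of Srpk2 exon 14 keeps the frame and leaves 1953 of 2046 coding bases.

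Puf60 knockdown lowered inclusion of 4 CLK exons, raised the longer form of Srpk1 exon 15, and raised the retention values of 3 introns beside these sites. In the comparison of knockdown with control over both lines, 8 of the 32 tested events were called, 4 higher and 4 lower, where 17.5% of all 22770 tested events were called, 5.21% higher and 12.3% lower. Of the 12 tested exons 4 were called and lower, where 28% of all exon events were, so the share of lowered exons was near that of all exons. Of the 16 tested introns 3 were called and higher, where 6.79% of all introns were. These were Srpk1 intron 14, whose value also counts reads of the longer exon 15, and the introns on either side of Clk3 exon 4. The Srpk1 value is therefore not separate from the change in exon 15. How far the values of the Clk3 introns follow from skipping of exon 4 was not tested. The median PSI difference was 0.3 points over the 32 events and -0.47 points over all events. Clk2 and Srpk2 had no called event in this comparison.

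**Figure D1:**
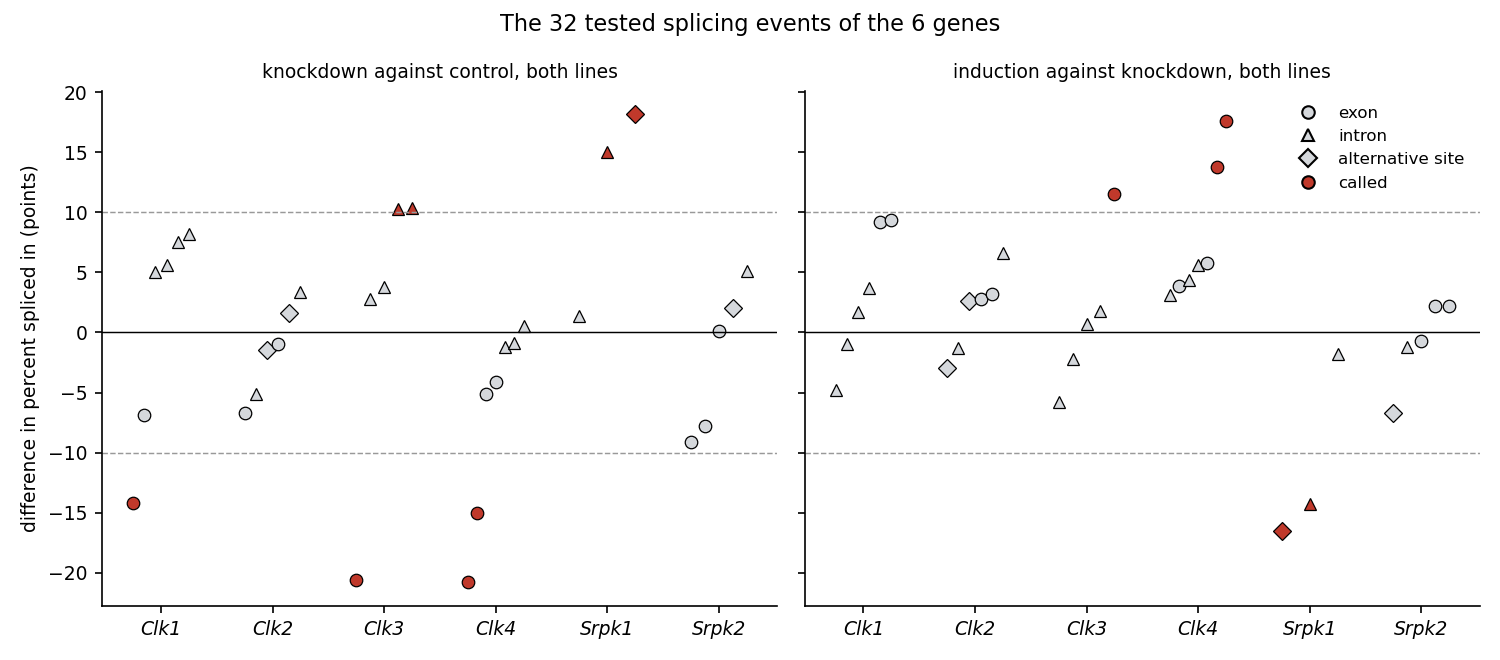
Difference in PSI (y axis, in points) of each of the 32 tested events of the 6 genes (x axis), for knockdown against control on the left and induction against knockdown on the right, averaged over both lines. Circles are exons, triangles introns and diamonds alternative sites. Red marks the 8 events called on the left and the 5 called on the right, and dashed lines mark 10 points.

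Clk3, the CLK with the largest annotated coding region of the 4, lost exon 4 on knockdown in both lines. In the pEx5 line exon 4 was included at 80.9% and 85.7% in the control libraries and at 58.6% and 61.3% in the knockdown libraries. In the mEx5 line the values were 78.6% and 80.2% in control and 63.8% and 59.3% in knockdown, so that control and knockdown did not overlap. The mean difference was -20.6 points (difference in log2 odds of inclusion -1.494, SE 0.14, limma adjusted p = 1.57e-06), with 295 to 1070 reads per library.

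The same exon of Clk4 was included less often than that of Clk3 in every library and fell as well. It was included at 42.9% and 47.3% in pEx5 control and 27.6% and 28.9% in pEx5 knockdown, and at 45.6% and 43.6% in mEx5 control and 33.0% and 29.7% in mEx5 knockdown. The mean difference was -15 points (log2 odds -0.932, SE 0.117, limma adjusted p = 2.6e-05). Its inclusion was at most 48.0% in any library, counted over spliced reads only, which leave out transcripts that retain the introns beside it.

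Exon 4 of Clk1, whose bases are close to those of Clk4, moved in the same direction by less and was not called. It was included at 63.9% and 69.4% in pEx5 control, 56.0% and 58.7% in pEx5 knockdown, 60.6% and 64.5% in mEx5 control, and 62.0% and 54.0% in mEx5 knockdown. In the mEx5 line the knockdown and control values overlapped, and the mean difference of -6.9 points (limma adjusted p = 0.0312) was under 10 points. The authors' deposited table marks exon 4 of Clk1 as changed on knockdown and on induction in pEx5, and on neither in mEx5. Exon 4 of Clk2 stood between 85.0% and 94.2% in all 12 libraries, with a knockdown difference of -1 points (limma adjusted p = 0.758). The exon 4 events of Clk1 and Clk2, as well as Srpk2 exon 14, fall outside the naming rule and were chosen after their values were seen. Differences in response between the genes were not tested.

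Clk1, the most studied CLK, instead lost exon 7, which lies within the kinase domain. It was included at 96.2% and 94.8% in pEx5 control and 79.7% and 77.7% in pEx5 knockdown. In the mEx5 line it was included at 94.4% and 95.2% in control and 84.4% and 81.9% in knockdown. The difference was -14.2 points (log2 odds -2.192, SE 0.161, limma adjusted p = 1.56e-07), with no overlap between control and knockdown in either line.

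Exon 7 of Clk2 was called within the mEx5 line and not over both lines. In the pEx5 line it was included at 91.0% and 90.7% in control and 92.4% and 88.7% in knockdown. In the mEx5 line it was included at 96.3% and 96.2% in control and 83.7% and 82.5% in knockdown. The difference was -13.1 points in mEx5 (limma adjusted p = 0.000694), a comparison in which 12.9% of all events were called, and -0.3 points in pEx5 (adjusted p = 0.93), where 15.2% were. The authors' deposited table likewise marks it as changed on knockdown in mEx5 and not in pEx5. It also marks the control groups of the lines as different (90.7% in pEx5 and 96.1% in mEx5). The knockdown groups are marked as well (90.5% in pEx5 and 83.1% in mEx5). Over both lines the difference was -6.7 points (limma adjusted p = 0.00166), under the 10 points required. The test of the difference between the lines, 12.9 points, gave an unadjusted p of 0.000373 and a limma adjusted p of 0.892.

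Clk4 also lost exon 2, with its start codon. Inclusion was 85.1% and 87.3% in pEx5 control against 61.3% and 64.6% in knockdown, and 87.4% and 87.8% in mEx5 control against 67.7% and 70.8% in knockdown. The difference was -20.8 points (log2 odds -1.764, SE 0.145, limma adjusted p = 4.36e-07). Of the introns on either side of exon 2, intron 1 was retained at no more than 0.85% in any library, and intron 2 at 5.3% to 17.3% (-1.2 points, limma adjusted p = 0.892).

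**Figure D2:**
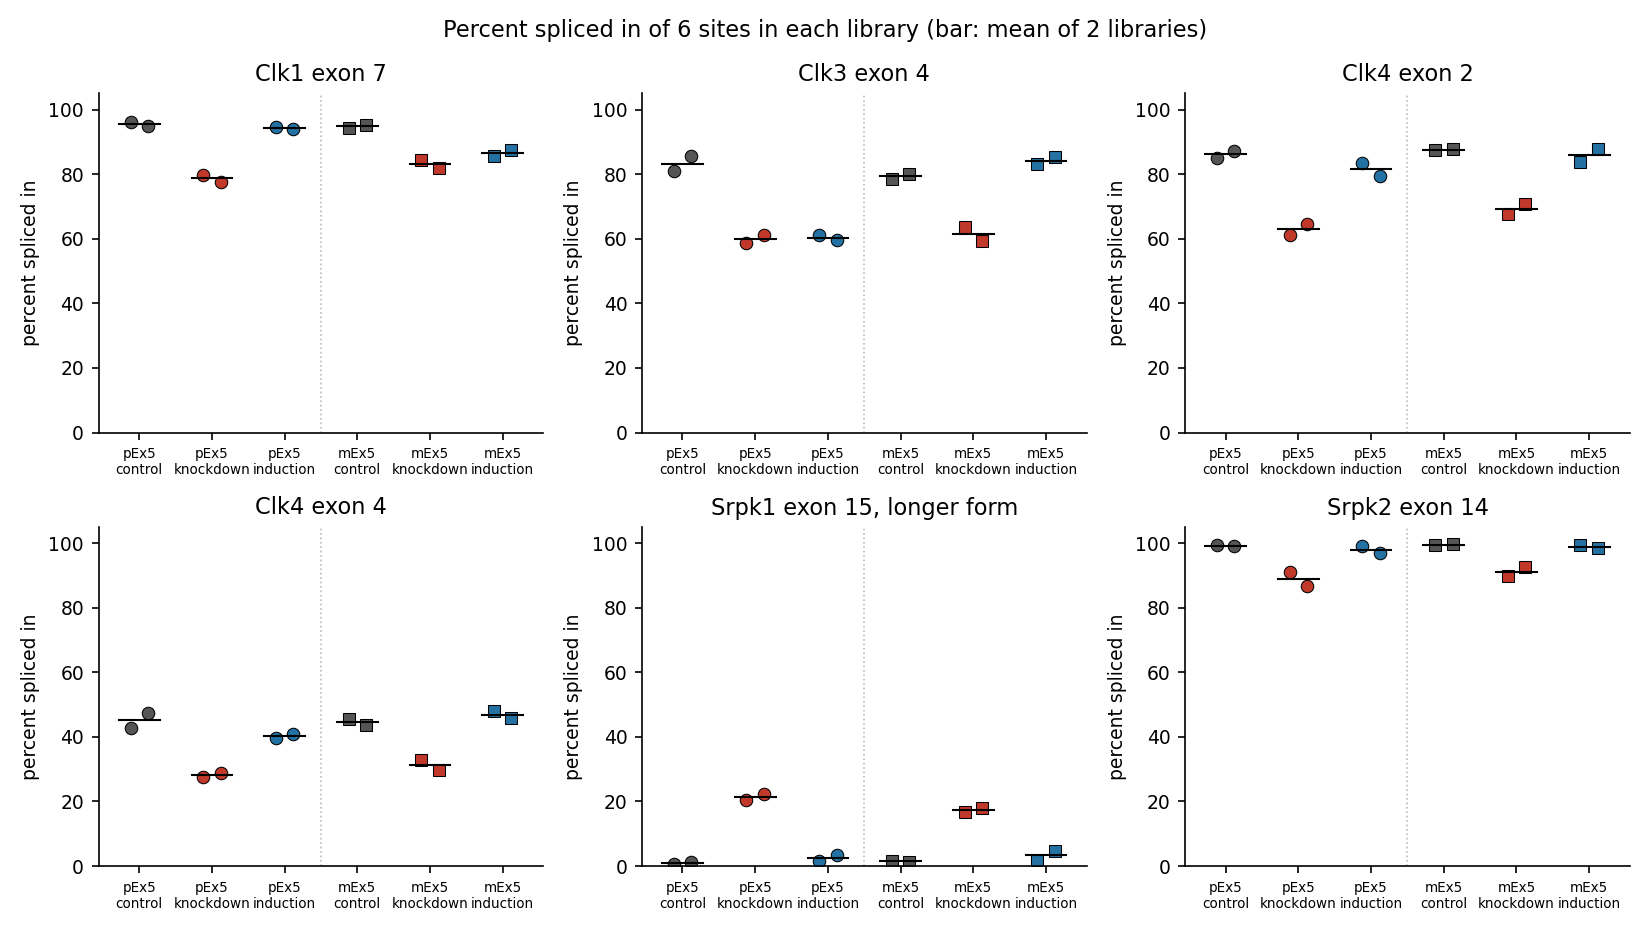
PSI (y axis, in percent) of 5 exons and of the longer form of Srpk1 exon 15 in each of the 12 libraries, with points for libraries and a bar for the mean of the 2 libraries of a group. Red knockdown points lie below the grey controls for the exons and above them for the Srpk1 site. The blue induction points lie near the controls except for Clk3 exon 4 in the pEx5 line, at 61.1% and 59.5%, and Clk1 exon 7 in the mEx5 line, at 85.6% and 87.4%.

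The introns around exon 4 of Clk1 and Clk4 were retained in a large share of transcripts in all groups. Clk1 introns 3 and 4 (871 and 387 nt) were retained at 15.7% to 36.1% and 17.6% to 41.2% across the 12 libraries. Clk4 introns 3 and 4 (1055 and 391 nt) were retained at 23.0% to 33.3% and 27.4% to 44.4%. None was called on knockdown, with differences of 5 and 5.6 points in Clk1 (limma adjusted p = 0.214 and 0.244) and of 0.5 and -0.9 points in Clk4 (limma adjusted p = 0.882 and 0.905). These 4 introns were also chosen after their values were seen.

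In Clk3 the introns on either side of exon 4 were called. Intron 3 (2100 nt) was retained at 13.2% and 12.6% in pEx5 control, 21.5% and 26.0% in pEx5 knockdown, 11.1% and 10.5% in mEx5 control, and 21.9% and 19.5% in mEx5 knockdown (10.4 points, limma adjusted p = 0.000654). Intron 4 (276 nt) was higher by 10.3 points (limma adjusted p = 0.00252). Its 2 libraries of mEx5 knockdown were far apart, with a mean of 20.0% and an SD of 8.77 points. Retention is read from the reads across both intron boundaries against the spliced reads of the same intron, and the latter also fall when the exon is skipped. For intron 3, reads across the 5′ and the 3′ boundary averaged 0.691 and 1.38 RPM (reads per 1000000 junction reads of the library) in pEx5 control and 0.768 and 1.11 in pEx5 knockdown, while spliced reads went from 7 to 2.99 RPM. In the mEx5 line the boundary reads averaged 0.594 and 1.06 in control and 0.766 and 1.41 in knockdown, and spliced reads went from 6.80 to 4.10 RPM. For intron 4 the 5′ and 3′ boundary reads averaged 0.772 and 0.423 RPM in pEx5 control and 0.879 and 0.207 in pEx5 knockdown. In mEx5 those of intron 4 averaged 0.954 and 0.128 in control and 0.892 and 0.325 in knockdown. The 5′ value was the higher in each of these groups. Spliced reads of intron 4 went from 5.94 to 2.33 RPM in pEx5 and from 5.48 to 2.38 in mEx5. These RPM are not scaled to the level of Clk3, which fell as well. In scaled junction reads per 1000000 it averaged 76.9 in pEx5 control and 45.2 in pEx5 knockdown. In mEx5 it averaged 72 in control and 50.2 in knockdown. How much of the rise in retention comes from skipping was not tested. The intron 3 call ended without pEx5 knockdown B (9.2 points) or mEx5 knockdown A (9.7 points). The intron 4 call ended without pEx5 knockdown A (8.9 points) or mEx5 knockdown B (7.2 points), and a difference of 10.0 points without mEx5 control B also fell short.

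The introns beside exon 7 of Clk1 did not reach the call. Intron 6 (87 nt) was retained at 6.07% and 5.06% in pEx5 control, 15.9% and 12.8% in pEx5 knockdown, 5.43% and 8.93% in mEx5 control, and 12.6% and 14.1% in mEx5 knockdown. The difference was 7.5 points (limma adjusted p = 0.0012). Intron 7 (2328 nt) ranged from 8.42% to 28.6% over the libraries (8.2 points, limma adjusted p = 0.0216). The authors' deposited table marks intron 6 as changed on knockdown in pEx5 and not in mEx5, and intron 7 in neither line.

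Srpk1, the ubiquitous cytoplasmic SR protein kinase, used the upstream 3′ splice site of exon 15 after knockdown. The longer form made up 0.72% and 1.25% of reads in pEx5 control and 20.5% and 22.4% in pEx5 knockdown. In the mEx5 line it made up 1.65% and 1.24% in control and 16.7% and 17.9% in knockdown. All 4 knockdown libraries were above all 4 controls, by 18.2 points on average (log2 odds 4.227, SE 0.33, limma adjusted p = 2.68e-07), with 397 to 832 reads per library.

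Intron 14 of Srpk1, which contains the added 117 bases, was listed as retained at 1.96% and 2.72% in pEx5 control, 20.3% and 16.4% in pEx5 knockdown, 1.61% and 1.65% in mEx5 control and 15.3% and 16.0% in mEx5 knockdown (15 points, limma adjusted p = 3.17e-07). Reads across its 3′ boundary numbered 13 and 17 in the pEx5 control libraries and 112 and 85 in the pEx5 knockdown libraries, and 10 and 11 against 58 and 72 in the mEx5 line. Reads across the 5′ boundary numbered 7 and 6 against 7 and 7 in pEx5, and 0 and 3 against 11 and 4 in mEx5, so that few reads lay there in any library. The 3′ boundary of intron 14 lies inside the longer form of exon 15, so reads of that form also cross it. The retention value and the splice site are therefore not separate events. The boundaries are named in the order in which vast-tools lists their reads.

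**Figure D3:**
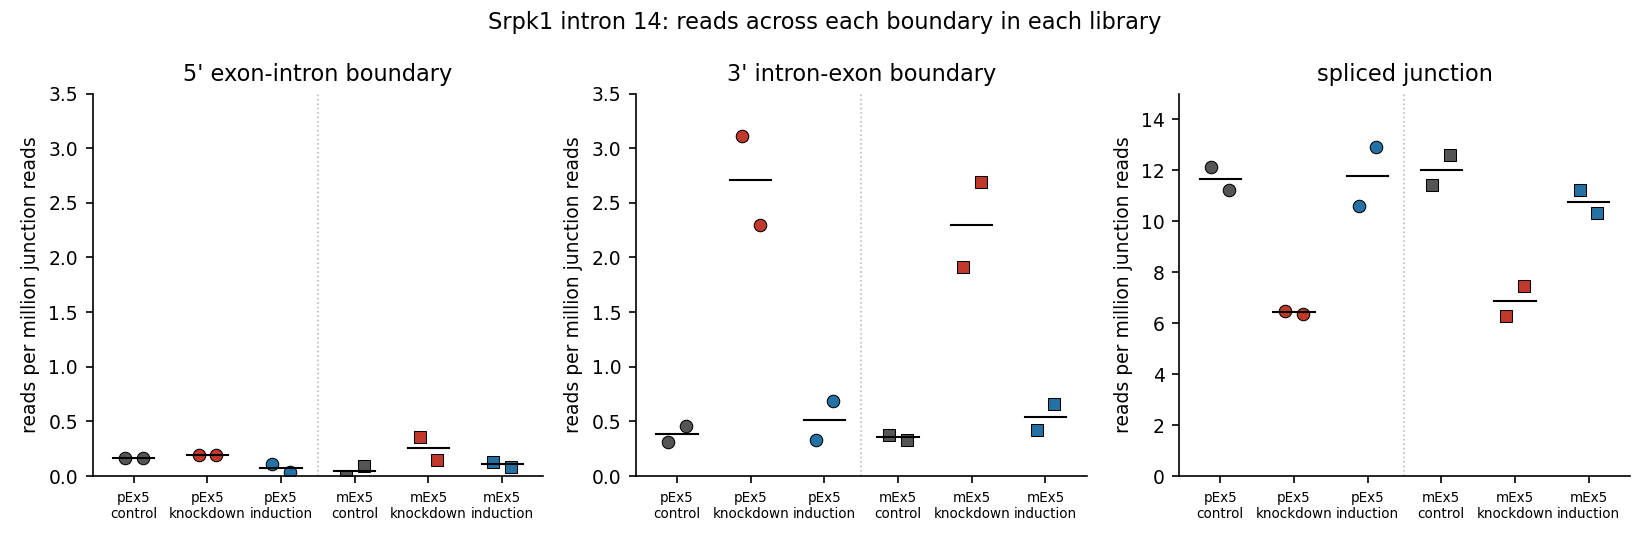
RPM (y axes) across the 5′ boundary, across the 3′ boundary and across the spliced junction of Srpk1 intron 14 in each library, with a bar for the mean of 2 libraries. The y axis of the third panel has another range. In knockdown the 3′ boundary stands at 1.91 to 3.11 RPM, above all other libraries, while the 5′ boundary stays at or below 0.361.

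Srpk2, the SRPK most abundant in the nervous system, lost the exon at the corresponding place. Exon 14 was included at 99.3% and 99.1% in pEx5 control, 91.1% and 86.7% in pEx5 knockdown, 99.5% and 99.6% in mEx5 control, and 89.8% and 92.5% in mEx5 knockdown. All knockdown libraries were below all controls. The mean PSI was above 95, so the exon was not tested, and the mean difference was -9.4 points. The authors' deposited table marks this exon as changed on knockdown and on induction in both lines. It was the largest difference among the 136 events with enough reads that were left untested, of which 124 differed by under 2 points.

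Among the tested events of Srpk2 an exon of 64 nt differed most on knockdown. It was included at 40.9% and 46.1% in pEx5 control, 35.3% and 27.3% in pEx5 knockdown, 37.2% and 45.1% in mEx5 control, and 32.9% and 37.6% in mEx5 knockdown. The difference of -9.1 points (limma adjusted p = 0.0301) did not reach 10 points, and in the mEx5 line the groups overlapped. Within the pEx5 line it was called (-12.2 points, limma adjusted p = 0.0454), and within mEx5 it was not (-5.9 points, adjusted p = 0.382). Over both lines it reached the call in 4 of the 12 fits that left out a library, those without pEx5 control A, pEx5 knockdown A, mEx5 control A or mEx5 knockdown B (-10.4, -11.1, -11.1 and -10.2 points). The 13 tested events not described here differed by -7.8 to 5.1 points over both lines, and none was called there.

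The summed junction reads of 5 of the 6 kinase genes were lower after knockdown, among them Clk2, which had no called event over both lines. On junction reads summed per gene, Clk1, Clk2, Clk3, Clk4 and Srpk1 were lower after knockdown over both lines and none was higher. The Clk4 call ended without the junctions beside the exons shown above. Within mEx5 alone Clk4 was not called (limma adjusted p = 0.0737). Of all 10363 genes tested, 51.8% were called and 24.8% were called and lower. The median log2 fold change was -0.39 over the 6 genes and 0.015 over all genes. In the authors' deposited table, Clk1, Clk2, Clk3 and Srpk1 (4 of the 6) were lower in both lines at an FDR under 0.05, a share that 13.7% of the 18576 genes with values reached.

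Per length, Srpk1 was the most abundant member in each of the 6 groups and Clk2 the least. The authors' deposited table gives Srpk1 62.5 to 89.8 RPKM, Clk4 38.7 to 51.1, Clk1 25.3 to 44.5, Srpk2 25.1 to 28.6, Clk3 19.2 to 29.6 and Clk2 11.7 to 15.5 RPKM over the groups. These are group values of the authors with no spread, so neighbours in this order whose ranges overlap cannot be separated.

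Clk1 fell the most. It stood at 95.2 and 107 CPM (junction reads of the gene per 1000000 scaled junction reads) in pEx5 control, 54.2 and 54.6 in pEx5 knockdown, 104 and 106 in mEx5 control and 64.2 and 64.7 in mEx5 knockdown. All 4 knockdown libraries were below the 8 others, and the log2 fold change was -0.80 (SE 0.0445, limma adjusted p = 2.59e-11).

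Clk3 had the next largest fall, from 76.5 and 77.3 to 44.6 and 45.9 CPM in pEx5, and from 73.9 and 70.0 to 49.0 and 51.5 in mEx5 (log2 fold change -0.64, SE 0.0469, limma adjusted p = 1.17e-09). Srpk1 fell from 217 and 231 to 154 and 155 CPM in pEx5, and from 209 and 220 to 163 and 150 in mEx5 (log2 fold change -0.50, SE 0.0427, limma adjusted p = 1.16e-08). In both genes the control and knockdown libraries were apart in each line. Clk2 fell less, from 52.3 and 51.0 to 41.8 and 41.6 in pEx5 and from 47.8 and 45.7 to 40.3 and 37.5 in mEx5 (log2 fold change -0.29, limma adjusted p = 9.72e-05).

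Clk4 was lower by -0.23 on the log2 scale (limma adjusted p = 0.00104), from 61.6 and 68.9 to 51.2 and 56.0 CPM in pEx5 and from 63.2 and 62.9 to 54.4 and 57.6 in mEx5. This sum includes the junctions beside exons 2 and 4, which lose reads when those exons are skipped. Without the junctions beside the exons shown above the log2 fold change of Clk4 was -0.09 (limma adjusted p = 0.277), and the call ended. The 4 other genes were still called, at -0.74 for Clk1, -0.56 for Clk3, -0.48 for Srpk1 and -0.30 for Clk2. This version of the sums was chosen after seeing the data. In the authors' deposited table Clk4 changed by -0.31 in pEx5 (FDR = 3.12e-05) and by -0.16 in mEx5 (FDR = 0.0612).

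Srpk2 did not pass the test, with 76.8 and 83.4 CPM in pEx5 control, 72.0 and 73.1 in pEx5 knockdown, 77.1 and 78.1 in mEx5 control and 74.2 and 76.3 in mEx5 knockdown (log2 fold change -0.09, SE 0.0463, limma adjusted p = 0.102). Its knockdown libraries lay below the controls of the same line, in mEx5 at 76.3 against 77.1 CPM at the nearest. The share of all genes separated in this way is not given here. In the authors' deposited table Srpk2 stood at 26.5 RPKM in pEx5 control and 25.3 in pEx5 knockdown, and at 25.1 and 25.9 in mEx5. The authors' FDR was 0.0645 in pEx5 and 0.482 in mEx5. These are bulk samples, so fewer cells and less RNA per cell cannot be told apart.

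**Figure D4:**
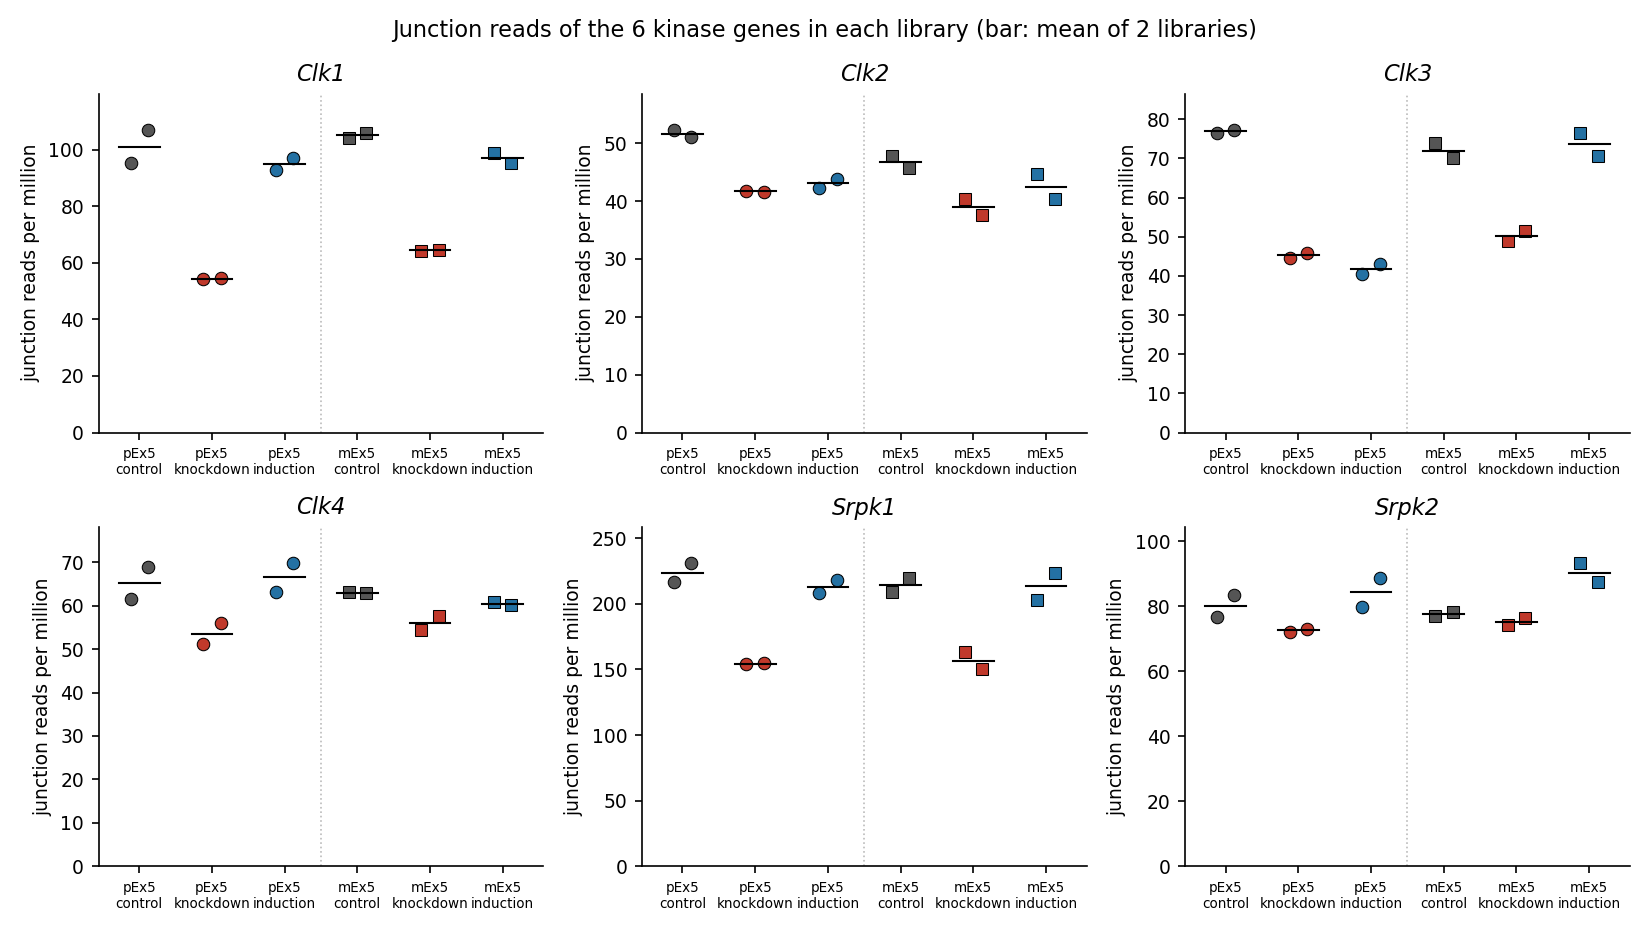
Junction CPM (y axes, from 0) of the 6 genes in each of the 12 libraries, with a bar for the mean of the 2 libraries of a group. In the Clk1 panel the knockdown libraries lie at 54.2 to 64.7, below all others, and in the Clk3 panel the pEx5 induction libraries lie at 40.5 and 43.1 with the knockdown libraries.

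After induction of the Puf60 cDNA several of these values moved back towards control. This comparison and the previous one share the knockdown libraries, so they are not independent. Over both lines 5 of the 32 events were called against knockdown, 3 higher and 2 lower, where 11.5% of all tested events were called. The 3 that were higher were exons, of 12 tested, where 18.1% of all exon events were called and higher. Clk4 exon 2 was higher by 17.6 points (limma adjusted p = 8.77e-06), Clk4 exon 4 by 13.8 points (adjusted p = 0.000136) and Clk3 exon 4 by 11.5 points (adjusted p = 0.000673), a mean of 0.4 points in pEx5 and 22.7 in mEx5. The longer form of Srpk1 exon 15 was lower by 16.5 points, to 1.45% and 3.54% in pEx5 and 1.88% and 4.68% in mEx5 (difference -16.5, limma adjusted p = 3.71e-06). The listed retention of Srpk1 intron 14, which is not a separate event, changed by -14.3 points (limma adjusted p = 2.47e-06).

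After induction Clk4 exon 2 was included at 83.6% and 79.5% in pEx5 and 83.8% and 87.9% in mEx5. Clk4 exon 4 was included at 39.7% and 41.0% in pEx5 and 48.0% and 45.7% in mEx5. Srpk2 exon 14 stood at 99.1%, 96.8%, 99.3% and 98.6% in the 4 induction libraries, above all 4 knockdown libraries.

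On junction reads 5 of the 6 genes were higher after induction than after knockdown, where 37.7% of all genes were called and 19.0% were called and higher. The median log2 fold change of the 6 was 0.23, against -0.008 over all genes. Clk1 was higher by 0.70 (limma adjusted p = 5.53e-10), Srpk1 by 0.45 (adjusted p = 9.96e-08), Srpk2 by 0.24 (adjusted p = 0.000455), Clk3 by 0.22 (adjusted p = 0.00115) and Clk4 by 0.21 (adjusted p = 0.003). Clk2 was not called (0.09, adjusted p = 0.195). The lines were not equal in Clk3 and Clk4. Clk3 changed by 0.55 in mEx5 (limma adjusted p = 5.07e-06), where 25.8% of all genes were called, and by -0.11 in pEx5 (adjusted p = 0.239), where 22.0% were. Clk4 changed by 0.31 in pEx5 (limma adjusted p = 0.00436) and by 0.11 in mEx5 (adjusted p = 0.289). Without the junctions beside the exons shown, the Clk4 change was 0.08 and not called (limma adjusted p = 0.415).

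Against control, no member event was called after induction over both lines, where limma called 3.18% of all events. An unadjusted p under 0.05 was found for 14 of the 32. An adjusted p under 0.05 was found for 5, all under 10 points, among them Clk3 exon 4 (-9.1 points, limma adjusted p = 0.017). Within pEx5, 2 events were called, 1 higher and 1 lower, where 3.37% of all events were called. Within mEx5, 1 event was called and higher, where 1.4% of all events were called. The mean over both lines can thus hide changes within a line. Of the genes 3 were called, where 37.9% of all genes were: Clk3 was lower by -0.42 (limma adjusted p = 1.06e-06), Clk2 lower by -0.20 (adjusted p = 0.00426) and Srpk2 higher by 0.15 (adjusted p = 0.0177). Of these, Clk3 differed from control by -0.88 in pEx5 (limma adjusted p = 1.66e-08), where 28.9% of all genes were called, and by 0.03 in mEx5 (adjusted p = 0.782), where 21.2% were. The Srpk2 call ended without any of 4 libraries: pEx5 control A, pEx5 induction B, mEx5 control A and mEx5 induction A. Clk1 was not called (-0.10, limma adjusted p = 0.0808), but passed without pEx5 control A (-0.14, adjusted p = 0.0178).

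Differences between the lines were called for the induction change, at Clk3 and Clk1, and not for the knockdown change. For the knockdown change, 0 of the 32 events differed between the lines by limma, with 1 at an unadjusted p under 0.05, and 0 of all events were called (0%). Likewise 0 of the 6 genes differed, with 2 at an unadjusted p under 0.05, where 0.0289% of all genes were called. For the induction change 2 of the 32 events were called, against 0.272% of all events, and 1 of the 6 genes, against 0.753% of all genes.

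Clk3 exon 4 was included at control levels with the cDNA lacking exon 5 and at knockdown levels with the cDNA containing it. After induction exon 4 of Clk3 was included at 83.3% and 85.2% in the mEx5 line and at 61.1% and 59.5% in the pEx5 line. The mEx5 values lay above the controls of that line, and the pEx5 values within the range of the knockdown libraries. The induction change was 0.4 points in pEx5 and 22.7 points in mEx5, a difference between the lines of -22.3 points (limma adjusted p = 0.0275). The induced lines themselves differed by -24 points (limma adjusted p = 0.000376), a comparison in which 2.85% of all events were called. In the pEx5 line induction differed from control by -23 points (limma adjusted p = 0.000244), where 3.37% of all events were called.

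The transcript level of Clk3 was likewise low in knockdown and in induced pEx5 and high in the other groups. After induction it stood at 40.5 and 43.1 junction CPM in pEx5 and 76.5 and 70.7 in mEx5. The difference between the lines in the induction change was -0.66 on the log2 scale (SE 0.0938, limma adjusted p = 0.00206), and -0.61 (adjusted p = 0.00576) without the junctions beside exon 4. The induced lines differed by -0.81 (limma adjusted p = 1.9e-08), where 37.7% of all genes were called in that comparison. The authors' deposited table gives Clk3 19.8 RPKM in induced pEx5 and 26.9 RPKM in induced mEx5, with a log2 fold change of -0.55 (FDR = 6.67e-16).

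**Figure D5:**
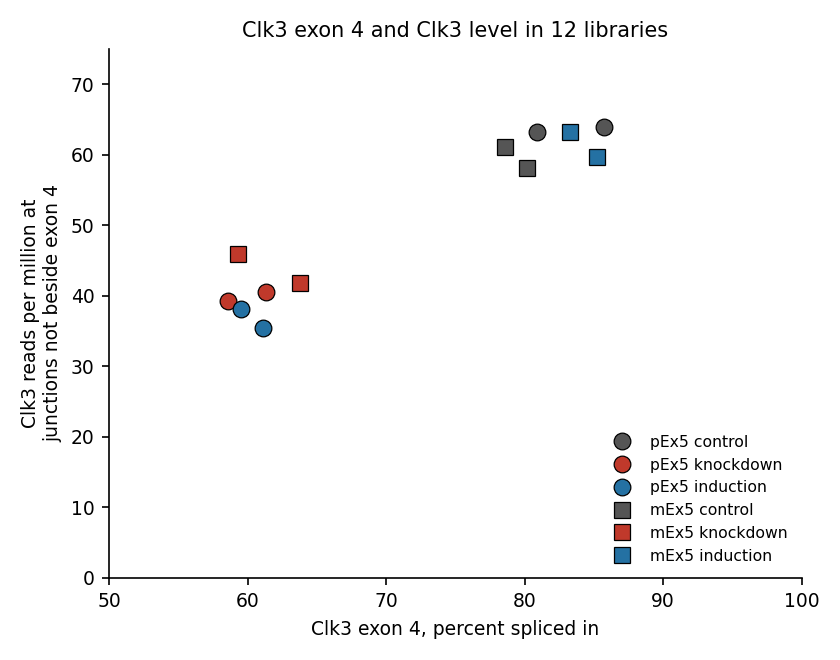
Clk3 CPM at junctions that do not adjoin exon 4 (y axis) against the PSI of Clk3 exon 4 (x axis, from 50%) in the 12 libraries. The 4 knockdown and the 2 pEx5 induction libraries lie at 58.6% to 63.8% inclusion and 35.4 to 45.9 CPM, and the 6 others at 78.6% to 85.7% and 58.2 to 64. The libraries form separate groups, so no correlation is given.

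Of the introns beside Clk3 exon 4, intron 4 was retained at 21.0% and 29.4% in induced pEx5 and at 7.06% and 11.2% in induced mEx5, a difference of 16.1 points (limma adjusted p = 0.0256) that rested on 75 and 110 reads in the pEx5 libraries and 220 and 144 in the mEx5 libraries. That call ended without pEx5 induction B (11.8 points, adjusted p = 0.271) and without mEx5 induction A (14 points, adjusted p = 0.202). As on knockdown, the spliced reads of this intron fall when exon 4 is skipped, and the level of Clk3 was also low in induced pEx5. How much of the difference comes from skipping was not tested.

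Exon 7 of Clk1 differed between the induced lines in the opposite direction. With the cDNA containing exon 5 its inclusion was 94.5% and 94.0%, close to the controls at 94.4% to 96.2%, and with the cDNA lacking it 85.6% and 87.4%, just above the knockdown libraries of that line. The induction change was 15.6 points in pEx5 and 3.3 points in mEx5, a difference between the lines of 12.3 points (limma adjusted p = 0.0291). The induced lines differed directly by 7.8 points (adjusted p = 0.00496), which is under 10 points. Clk1 intron 6, on the 5′ side of exon 7, stood at 17.8% and 17.3% in induced mEx5 and at 7.57% and 8.64% in induced pEx5 (-9.5 points, limma adjusted p = 0.0383). The authors' deposited table marks exon 7, intron 6 and intron 7 of Clk1 as different between the induced lines.

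The level of Clk1 did not pass the test between the induced lines: it was 92.9 and 97.0 CPM in induced pEx5 and 98.8 and 95.3 in induced mEx5 (limma adjusted p = 0.727). Both line differences in exon use depend on the fit. They ended with equal weights for all libraries (adjusted p = 0.317 for each exon) and without any single knockdown or induction library, while the direct difference of -24 points at Clk3 exon 4 was called in each alternative fit that was run. Induced Puf60 stood higher in pEx5 than in mEx5 (246 and 202 RPKM in the authors' deposited table). Each cDNA also had its own stable line. The presence of exon 5, the amount of Puf60 and other differences between the lines therefore cannot be told apart here. Between the control groups of the lines, limma called 27.1% of all genes and 0.0351% of all events. Of the members, 0 of the 6 genes and 0 of the 32 events were called there.

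Among other genes of the pathway, several SR protein genes, the substrates of these kinases, were lower after knockdown. The authors' deposited table had values for 12 of 13 SR and Tra2 genes, of which 8 were lower and 1 was higher in both lines at an FDR under 0.05, with a median log2 fold change of -0.27 against 0.02 over all genes. Of all genes with values in the authors' deposited table, 13.7% were lower and 10.1% higher in both lines. On junction reads 5 of 10 were lower and 2 higher, where 24.8% of all genes were called and lower and 27% called and higher. The 3 with the largest mean change in the authors' deposited table were Srsf5 (-0.51), Srsf6 (-0.50) and Srsf3 (-0.37), all SR proteins. Of these, Srsf6 was tested on junction reads and was lower by -0.35 (limma adjusted p = 3.44e-06).

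The list of other kinases also holds the topoisomerase gene Top1. Of its 17 genes with values in the authors' deposited table, 7, Top1 among them, were lower and 2 higher in both lines. On junction reads the balance was the opposite, with 2 of 16 lower and 5 higher by limma, so no direction is given for this list. Dyrk4, a DYRK kinase, was higher by 0.52 in the authors' deposited table and by 0.54 on junction reads (limma adjusted p = 3.4e-05). Dyrk2 of the same family was lower by -0.36 in the authors' deposited table, but on junction reads its change of -0.29 did not pass the test (limma adjusted p = 0.26). Csnk2a1, the catalytic subunit of casein kinase 2, was lower by -0.30 in the authors' deposited table. Of 9 phosphatase genes in the authors' deposited table, 3 were lower and 1 higher, and on junction reads 3 of 8 were lower and 2 higher. In the authors' deposited table Ppp1r10, a regulatory subunit of protein phosphatase 1, was higher by 0.28, and Ppp2cb (-0.25) and Ppm1g (-0.19), which encode phosphatase catalytic chains, were lower. On junction reads these changes were 0.29, -0.20 and -0.16, all called by limma. Of 6 import and chaperone genes with values in the authors' deposited table, Dnajc8, a J-domain protein that binds SRPK1, was lower by -0.74 and Ahsa1, an activator of Hsp90, higher by 0.18. On junction reads Dnajc8 was lower by -0.73 (SE 0.046, limma adjusted p = 1.29e-10). Its change from knockdown to induction was 0.46.

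Across the 12 libraries the level of Clk1 moved most like that of Mcm8 (Pearson r = 0.99), Xpo5 (0.989) and Dnajc17 (0.987) among 10362 other genes. Srpk1 was most like 2310035C23Rik (0.988), Orc3 (0.984) and Nbas (0.98). Clk3 was most like Rbm4 (0.976), Ash2l (0.964) and Ift20 (0.963). Clk2 was most like Eif4g1 (0.965), Clk4 like Aasdhppt (0.923) and Srpk2 like Thyn1 (0.947). Among the members the highest value was 0.96, between Clk1 and Srpk1, and the lowest 0.15, between Clk2 and Srpk2. All these values come from the same 12 libraries in 6 groups and are descriptions.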

How the data were processed

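RNA-seq of polyadenylated RNA was analysed from the authors' processed tables. Per the file headers, the authors' vast-tools table gave PSI in percent per library, with a quality text holding reads: recomputing PSI from those reads gave the listed value to 0.02 points in 98.89% of cases. The deposited expression table gave RPKM per group with the authors' log2 fold changes, p-values and FDR (Salmon 0.14.1 and edgeR on mm10, per the submitters' processing notes). A further deposited table gave a group PSI score. The splicing table's assembly is not given in the sources used here and its positions did not match mm10, so exons were matched to GENCODE by exon and intron lengths (51 of 75 exon events, 73 of 74 introns).

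Computed here, in R 4.3.3 with limma 3.58.1: logit of inclusion reads (pseudocount 0.5, precision weights with variance floor 0.01) for 22770 events with at least 10 reads in each library and mean PSI 5 to 95, and log2 CPM of junction reads per gene (median-of-ratios scaling, prior count 2, mean of at least 20 reads, 10363 genes). Each fit had 1 coefficient per group and Benjamini-Hochberg adjustment over the whole table, and was tested on simulated data. The alternatives were equal weights, other floors, read minimums, pseudocounts, scaling and PSI limits, a replicate block, and leaving out each library. The sample description of the doxycycline libraries says uninduced; the treatment field was used. The members, lists and naming rule (called events, the Clk1 and Clk4 exons with most reads and their introns, and the largest knockdown difference of a member without a called event, and up to 3 genes per list by the authors' fold change) were chosen with earlier results of these data known.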

Additional observations from a re-analysis of the deposited data

Results flagged for a closer look

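The induction change of Clk3 exon 4 differed between the lines by -22.3 points of PSI (0.4 points in pEx5, 22.7 points in mEx5), by the limma test of that difference (adjusted p = 0.0275).

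The induction change of the Clk3 transcript differed between the lines by -0.66 on the log2 scale (limma adjusted p = 0.00206), in the direction of its exon 4, with pEx5 lower.

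The induction change of Clk1 exon 7 differed between the lines by 12.3 points (15.6 points in pEx5, 3.3 points in mEx5; limma adjusted p = 0.0291), opposite in direction to Clk3 exon 4. Induced Puf60 stood at 246 RPKM in pEx5 and 202 RPKM in mEx5 in the authors' deposited table. The parts of this amount, of exon 5 and of other differences between the lines cannot be told apart.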

How the results depend on the processing

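With 15 points in place of 10, the called events were 5 for knockdown (8 in the report), 2 for induction against knockdown (5) and 1 for the line difference on induction (2). That last count was 0 with equal weights, 0 with a variance floor of 0.05 and 0 with no PSI limit, where the adjusted p of Clk1 exon 7 and Clk3 exon 4 was 0.317 and 0.317, 0.159 and 0.16, and 0.168 and 0.245; the cause was not tested. Leaving out each library in turn gave 7 to 9 events for knockdown, 5 to 7 for induction against knockdown, 0 to 1 for induction against control, 0 for the line difference on knockdown and 0 to 2 for that on induction. The same fits gave 5, 5, 2 to 3, 0 and 1 genes. The alternative without junctions beside the named exons was chosen after seeing the data and gave 4 genes for knockdown and 4 for induction against knockdown, in place of 5 and 5.

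With the letters A and B as a replicate block the counts were 8, 5, 0, 0 and 2 events and 5, 5, 3, 0 and 1 genes, the same as without it. Over 15 pairs of groups the deviations of same-lettered libraries correlated at -0.13 to 0.16. This gave no sign of pairing by letter, but cannot show whether same-lettered libraries shared a culture or transfection. No value of the 40 single results examined changed sign in any alternative. Each group had 2 libraries, which limits the precision of every difference, and Clk3 intron 4 had the fewest reads of the introns named, 75 in its shallowest library.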
